A study of Mus musculus with 61 samples.

Results

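Hoxa2, Hoxa3, Hoxa4 and Hoxa5 are the 4 anterior Hoxa genes described here, taken by name from the deposited table of 55052 genes and followed through 61 RNA-seq libraries of mouse stembryos. Stembryos are aggregates of mouse embryonic stem (mES) cells that, after a pulse of the Wnt agonist Chiron ending at 72 h, elongate into a structure resembling the posterior body axis. A wild-type (wt) time course comprised 2 libraries at each of 72, 84, 96, 108, 120, 132, 144 and 168 h after aggregation. A further 10 wild-type libraries, 4 each at 96 and 120 h and 2 at 144 h, lay outside that series, and they were the stage-matched controls of 8 mutant lines in 17 combinations of line and stage, each with 2 libraries, except for the 3 libraries of Del(sub-TAD1) at 96 h. All stembryos were grown from mES cells with the same Chiron pulse. The mutations were homozygous and lie on chromosome 2, in or next to the HoxD cluster, whereas the HoxA cluster lies on chromosome 6. Del(CBS1), Del(CBS2), Del(CBS4), Del(CBS1-2) and Del(CBS1-5) lack 1 or several binding sites of the CTCF protein within HoxD, and Del(CBS1-2) was made on the Del(CBS1) background. Del(d1-d4) lacks the segment from Hoxd1 to Hoxd4, Ins(2xCBS-d4d8) gained a cassette of CTCF sites 5′ of CBS1, and Del(sub-TAD1) lacks a regulatory domain flanking the cluster, with the gene Mtx2, which a fosmid transgene supplied. Del(CBS1-5) and Del(sub-TAD1) cells came from blastocysts of mutant mice, while the other lines were edited clones of the wild-type mES cells, so that in these 2 lines the origin of the cells and the mutation cannot be told apart. Each library was made from pooled stembryos, from 108 h on only from elongating ones, and the labels do not say whether replicates came from separate cultures, so that p-values measure the spread between these libraries, which may be technical.

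Hox genes encode homeodomain transcription factors that give cells their position along the body axis. In each Hox cluster the genes at one end, the anterior ones, are switched on first and in more anterior tissue, and genes further along the cluster follow. Retinoic acid, Wnt and Cdx factors are known inputs to this activation, and Meis and Pbx proteins are DNA-binding partners of HOX proteins. Hoxa2 patterns the hindbrain and the second branchial arch, Hoxa3 the third arch with thymus and parathyroid, Hoxa4 the cervical spine, and Hoxa5 the cervico-thoracic skeleton and lung. All samples were bulk, so that fewer expressing cells and less RNA per cell cannot be told apart.

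On mm10, chromosome 6, minus strand, Hoxa2 (ENSMUSG00000014704) spans 52162417 to 52164831 in the deposited tables, Hoxa3 (ENSMUSG00000079560) 52169062 to 52213115, Hoxa4 (ENSMUSG00000000942) 52189671 to 52191753 and Hoxa5 (ENSMUSG00000038253) 52201754 to 52204587. Hoxa4 and Hoxa5 thus lie inside the bounds of Hoxa3, on the same strand. Hoxa3 has 4 annotated transcripts in GENCODE, with 6014 exon bases, while each of the others has 1. On the same strand, Gm28308, which is not listed in the table, shares 482 exon bases with Hoxa3 and 267 of the 1775 of Hoxa2. On the opposite strand, 503 of the Hoxa3 exon bases are shared with Hoxaas2, 297 with Hoxaas3, 292 with 5730596B20Rik and 437 with Gm29430, and how the authors' counting divided such fragments is uncertain. Hoxa5 shares no exon base with another annotated gene, but it lies inside Hoxa3, Gm28308 and Hoxaas3, and whether this affected its value was not tested. The 3 promoters for which RefSeq gave an entry (GRCm38.p6) are shown because the 3 genes rose in the same step of the time course, and they are the 250 bases before each RefSeq start at chr6:52164832-52165081 (Hoxa2), chr6:52213068-52213317 (Hoxa3) and chr6:52204588-52204837 (Hoxa5), minus strand, with capitals marking CCAAT or TGATTNAT on either strand. The Hoxa3 window is that of 1 RefSeq start among several annotated ones: 48 of its bases lie inside the gene bounds of the deposited tables and all 250 inside those of GENCODE.
Hoxa2: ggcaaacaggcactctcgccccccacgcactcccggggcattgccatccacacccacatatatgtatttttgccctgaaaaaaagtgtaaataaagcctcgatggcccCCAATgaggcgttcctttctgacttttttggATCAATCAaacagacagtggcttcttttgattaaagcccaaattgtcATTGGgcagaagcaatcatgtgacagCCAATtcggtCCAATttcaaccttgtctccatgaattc
Hoxa3: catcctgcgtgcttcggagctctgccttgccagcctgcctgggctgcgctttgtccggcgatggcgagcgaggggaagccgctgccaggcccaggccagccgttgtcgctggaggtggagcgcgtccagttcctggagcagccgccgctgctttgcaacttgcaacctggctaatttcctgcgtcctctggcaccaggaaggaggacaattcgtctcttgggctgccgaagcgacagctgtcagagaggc
Hoxa5: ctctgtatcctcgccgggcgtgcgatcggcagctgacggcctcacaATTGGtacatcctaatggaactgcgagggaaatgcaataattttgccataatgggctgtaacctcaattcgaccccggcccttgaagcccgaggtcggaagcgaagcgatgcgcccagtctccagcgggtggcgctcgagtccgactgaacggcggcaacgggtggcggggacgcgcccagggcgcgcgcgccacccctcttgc

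The windows differed in composition, with 46.4% GC and 6 CG steps before Hoxa2, 64.8% and 18 before Hoxa3, and 63.6% and 28 before Hoxa5. The Hoxa2 window held 4 matches to CCAAT, the CCAAT box, and 1 to TGATTNAT, a HOX/PBX composite. The Hoxa5 window held 1 CCAAT and the Hoxa3 window no match. Neither CTTTGA (TCF/LEF), AGGTCA (nuclear receptor half-site), TTTATG (CDX-like) nor TATAAA was present in any of the 3 windows. Among 32817 promoter windows of the same length, CCAAT occurred in 33.8%, TGATTNAT in 2.83%, CTTTGA in 13.8%, AGGTCA in 14%, TTTATG in 10.8% and TATAAA in 12.4%.

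Levels are FPKM (fragments per kilobase of transcript, relative to the mapped fragments of the library), as computed by the authors, and differences are on the log2(FPKM + 0.1) scale with standard error (SE). From the confidence bounds in the tables, the depth was estimated at 13.8 M to 35.5 M (mega) fragments per library, which put 203 to 1046 fragments behind each value of Hoxa2, Hoxa3 and Hoxa5 above 0 from 84 h on. At 72 h the values rested on far fewer, for instance 5 fragments for Hoxa5 in replicate 1. The tables also list 0 for genes that are otherwise well expressed: of 6434 genes with a median of at least 10 FPKM, 121 (1.88%) were listed at 0 in at least 1 library. Hoxa4 was listed at 0 in 58 of 61 libraries, with 0.143 and 1.08 FPKM at 72 h and 4.91 FPKM in replicate 2 at 96 h of the time course as its only other values, and Hoxa3 was listed at 0 in 1 library. The authors' run gave each of these values the status OK, so none was marked as failed. Since a 0 can still be a failed estimate, no test of Hoxa4 was read, and Hoxa3 tests are given also with its 0 treated as missing. The libraries fell into 2 sets, 28 with 519 to 926 FPKM of the mitochondrial mt-Nd3 and 33 with 0 to 2.17 FPKM. Wild type, Del(CBS1-5) and Del(sub-TAD1) had libraries in both sets, while every other line lay wholly in a single set, so that set and line partly coincided. The time course belongs wholly to the second set, together with all other libraries at 144 h, replicate 4 of the wild type at 96 and 120 h, the lines Ins(2xCBS-d4d8) and Del(CBS4), and the 96 h libraries of Del(sub-TAD1).

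The time course addresses when each gene was switched on. Hoxa2, Hoxa3 and Hoxa5 were all low at 72 h, rose between 72 and 84 h, and stayed on until 168 h. Hoxa2 stood at 0.498 and 3.39 FPKM at 72 h (replicates 1 and 2) and at 6.96 and 9.53 FPKM at 84 h. Hoxa3 went from 0.394 and 2.22 FPKM to 15.3 and 15.2 FPKM. Hoxa5 went from 0.138 and 0.855 FPKM to 16.8 and 15.2 FPKM. In all 3 genes both libraries at 84 h lay above both at 72 h, a separation that was not counted over all genes. At 72 h replicate 2 was above replicate 1 in each. In limma's test adjusted over all genes, Hoxa2 rose by 2.51 (SE 0.35, adjusted p = 1.37e-06), or 5.70-fold, in this step. Hoxa5 rose by 5.07 (SE 0.32, adjusted p = 1.15e-14 in limma), or 33.7-fold. Hoxa3 rose by 3.84 (SE 1.17, adjusted p = 0.0195 in limma), or 14.4-fold, and with its 0 treated as missing the SE was 0.41 and the adjusted p 5.39e-09. As deposited, the Hoxa3 call was lost without replicate 1 at 72 h (adjusted p = 0.256) or either library at 84 h (0.0996 and 0.0853) in limma. Of all genes tested, 16.3% passed in this step, 10.4% as higher. None of the 3 rises passed when only the 4 libraries of both stages entered the fit, with adjusted p between 0.0531 and 0.208 in limma.

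Taking as onset the earliest stage with both libraries at 1 FPKM or more, Hoxa2, Hoxa3 and Hoxa5 had their onset at 84 h, as also with 0.5 or 2 FPKM. In replicate 2 alone, Hoxa2 and Hoxa3 were past 1 FPKM already at 72 h and Hoxa5 was not. The ratio of Hoxa2 to Hoxa5 was 3.62 and 3.97 at 72 h and 0.415 and 0.628 at 84 h, so the order of both genes turned within this step. At 84 h Hoxa5 had its highest stage mean, 15.97 FPKM, while Hoxa2 stood at 40.7% and Hoxa3 at 69.3% of theirs.

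From 84 to 96 h the members parted, though in 1 library above all. Hoxa2 reached 11.6 and 21.9 FPKM, Hoxa3 18.8 and 6.76 FPKM, and Hoxa5 13.1 and 5.58 FPKM. Replicate 2 held the higher Hoxa2 and the lower Hoxa3 and Hoxa5, with a ratio of Hoxa2 to Hoxa5 of 3.92 against 0.882 in replicate 1. In limma's test Hoxa2 rose by 0.96 (SE 0.35, adjusted p = 0.0482) and Hoxa5 fell by 0.89 (SE 0.32, adjusted p = 0.0435), and 20.7% of all genes passed in this step, 8.16% as higher and 12.5% as lower. Without replicate 2 at 96 h both calls were lost, with 0.50 (adjusted p = 0.544) for Hoxa2 and -0.28 (adjusted p = 0.773) for Hoxa5 in limma. They were also lost without either library at 84 h, at adjusted p of 0.316 and 0.0619 for Hoxa2 and 0.192 and 0.108 for Hoxa5. That library also stood apart in other genes: Cdx4, a posterior regulator of Hox genes, was at 0.954 against 46.8 FPKM in replicate 1, Hoxc4 at 1.46 against 14.5 FPKM, and Aldh1a2, which makes retinoic acid, at 841 against 330 FPKM. The cardiac marker Myl7 was at 18.0 against 0.519 FPKM, but Nkx2-5 was at 0.102 against 0.0971 and Tnnt2 at 0.1035 against 0 FPKM. Of the endothelial markers, Kdr was at 5.10 against 0.718 FPKM, Cdh5 at 0.0845 against 0.0918 and Pecam1 at 0.609 against 0.517 FPKM. The part of these differences in the members' values was not tested.

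No member passed in any later step. Over the 7 steps, 5 of 21 tests of Hoxa2, Hoxa3 and Hoxa5 passed, 3 of them from 72 to 84 h and 2 from 84 to 96 h, against 10.2% of all gene tests. Hoxa2 kept a narrow course from 108 h on, with 12.9 and 15.0 FPKM at 108 h, 17.2 and 17.6 at 120 h, 17.6 and 16.6 at 132 h, 18.6 and 17.8 at 144 h, and 20.3 and 20.2 at 168 h, its highest mean. Hoxa3 stood at 15.5 and 21.9 FPKM at 108 h, 13.4 and 28.4 at 120 h, 21.2 and 22.9 at 132 h, its highest mean, 16.6 and 18.2 at 144 h, and 21.2 and 19.2 at 168 h. Hoxa5 stood at 13.3 and 14.9 FPKM at 108 h, 9.62 and 17.3 at 120 h, 14.2 and 16.1 at 132 h, 8.46 and 9.74 at 144 h, and 12.0 and 9.57 at 168 h. The replicates of Hoxa3 and Hoxa5 thus lay far apart at 120 h, where replicate 1 held the lower value, whereas those of Hoxa2 did not. In that replicate Cdx4 was also lower, at 10.3 against 53.3 FPKM, and the endothelial Kdr and Cdh5 higher, at 13.3 against 0.577 and 9.06 against 0.404 FPKM, and their part in the result was not tested. Neither from 96 to 168 h nor from 120 to 168 h did any of the 3 genes pass, while 38.1% and 26.7% of all genes did. From 120 to 168 h the limma estimate was 0.22 for Hoxa2 (95% interval -0.50 to 0.93) and -0.27 for Hoxa5 (-0.92 to 0.38). From 84 h on, each of the 3 genes thus stayed within a 4.20-fold range over the 14 libraries, 3.14-fold for Hoxa2 and 3.11-fold for Hoxa5.

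The ratio of Hoxa2 to Hoxa5 was 0.969 and 1.01 at 108 h, 1.83 and 2.198 at 144 h, and 1.69 and 2.11 at 168 h. Hoxa2 exceeded Hoxa5 in both libraries at 120, 132, 144 and 168 h. The same ratio was 0.841 to 1.09 in the 4 other wild-type libraries at 96 h, 0.900 to 1.31 at 120 h and 1.26 to 1.32 at 144 h. FPKM is a value per length, so these are ratios of levels between genes.

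**Figure D1:**
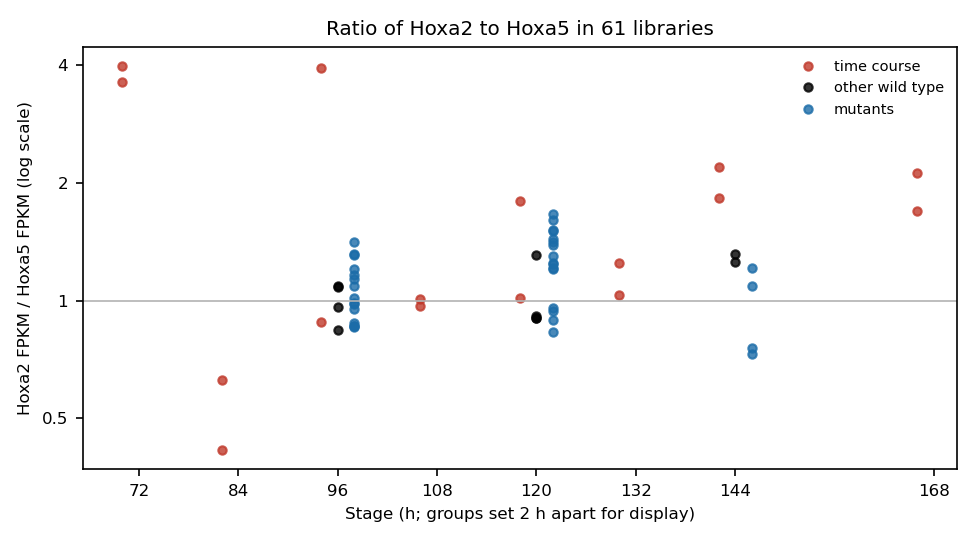
Ratio of the FPKM of Hoxa2 to that of Hoxa5 (y axis, log scale) by stage in h (x axis) in all 61 libraries, with red points for the time course, black for other wild-type libraries and blue for mutants. The ratio was above 3 at 72 h, below 1 at 84 h and between 1.69 and 2.198 at 144 and 168 h in the time course.

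Along the cluster, genes beyond Hoxa5 had later onsets. Hoxa9 had its onset at 108 h, as did Hoxa7, whose onset rests on values listed at 0 (both libraries at 84 h and replicate 2 at 96 h, against 25.5 FPKM in replicate 1). Hoxa7 was listed at 0 in 14 of 61 libraries, and whether these are failed estimates was not tested. Hoxa6, Hoxa10 and Hoxa11 followed at 132 h. With 0.5 FPKM, or in replicate 2 alone, Hoxa6 and Hoxa10 had their onset at 108 h already. Hoxa13 had no stage with both libraries at 1 FPKM. From 72 to 84 h none of the 5 genes beyond Hoxa5 that were tested (all but Hoxa13) passed in limma, beside the 3 members that did. Of the non-coding transcripts of HoxA, Hoxaas3 went from values listed at 0 in both libraries at 72 h to 41.6 and 36.0 FPKM at 84 h, and Halr1 from 0.655 and 2.58 to 3.82 and 4.56 FPKM. Both rose past the threshold. Hoxaas3, which is antisense to Hoxa3 and shares exon bases with it, was listed at 85.0 and 84.2 FPKM at 144 h and at 0 in both libraries at 168 h, and whether that 0 is a failed estimate was not tested. Hotairm1 was listed at 0 throughout the time course.

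**Figure D2:**
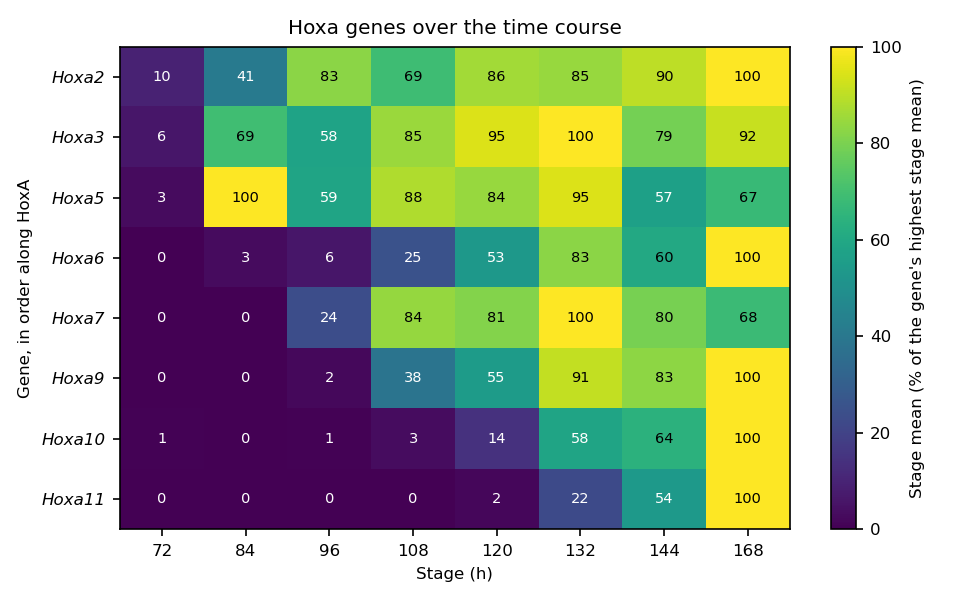
Mean FPKM at each stage of the time course (x axis, h) as a percentage of the gene's highest stage mean, for Hoxa genes in their order along HoxA (y axis), with the percentage printed in each cell. Hoxa5 reached its highest mean at 84 h, when Hoxa6, Hoxa7, Hoxa9, Hoxa10 and Hoxa11 stood at 3.09% or less. Hoxa4 is left out, and the low Hoxa7 percentages rest on values listed at 0.

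The paralogues of the members in the other clusters rose in the same step, though Hoxb2 had passed 1 FPKM in both libraries already at 72 h. All 8 (Hoxb2, Hoxb3, Hoxb4, Hoxb5, Hoxc4, Hoxc5, Hoxd3 and Hoxd4) rose from 72 to 84 h in limma's test, with a median of 4.57 on the log2 scale. The smallest rise was that of Hoxb2, 2.54 (SE 0.24), next to 2.51 for its paralogue Hoxa2, and both had the highest levels at 72 h of their group (7.14 and 16.5 FPKM for Hoxb2). From 84 to 96 h Hoxb3, Hoxd3 (2.73) and Hoxd4 (2.62) rose again, and Hoxa3 did not pass.

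Of 15 regulators and cofactors of Hox genes, 13 were tested. From 72 to 84 h, 9 of them rose and 1, T, a factor of the primitive streak, fell by 1.24. Aldh1a2 rose by 7.41 (SE 0.39), Cdx4 by 3.09 (SE 0.77), Cdx2 by 2.47 (SE 0.33), Meis2 by 3.12 (SE 0.18) and Meis1 by 2.30 (SE 0.24). The pluripotency factor Pou5f1 went from 1124 and 1129 FPKM at 72 h to 532 and 552 FPKM at 84 h and 9.58 and 8.36 FPKM at 168 h while the members stayed on.

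The genes whose course was most like that of a member were picked by Pearson's r of log2(FPKM + 0.1) over the 16 time-course libraries, among 11834 named protein-coding genes outside the Hox clusters. For Hoxa2 they were Meis2 (r = 0.962), the lipid-binding Osbpl6 (0.949) and the zinc-finger gene Tshz1 (0.944). For Hoxa3 they were Skap2 (0.971), Gprc5a (0.962) and Mex3b (0.961), and for Hoxa5 Skap2 (0.980), Fbxo10 (0.955) and Zadh2 (0.947). The 16 points share the step at 72 h and the libraries apart at 96 and 120 h. Without the 72 h libraries (14 points) r stayed at 0.961 for Meis2 with Hoxa2 and 0.960 for Mex3b with Hoxa3, and was 0.825 for Skap2 with Hoxa5 and 0.243 for Zadh2 with Hoxa5. The other 5 pairs gave values of up to 0.758. Over the 45 other libraries, from 96 h on, r was lower in all 9 pairs than over the 16, and ranged from -0.329 for Gprc5a and -0.11 for Skap2, both with Hoxa3, to 0.561 for Tshz1 with Hoxa2, with 0.186 for Meis2, 0.140 for Mex3b and 0.329 for Skap2 with Hoxa5. Skap2, an adaptor protein, is the neighbour of HoxA, at chromosome 6, 51857422 to 52012549, 149.9 kb from Hoxa2, and stood at 14.5 and 24.7 FPKM at 72 h and 57.0 and 56.3 FPKM at 84 h. Meis2 stood at 4.16 and 7.59 FPKM at 72 h, 45.8 and 53.4 FPKM at 84 h, and 62.6 and 105 FPKM at 96 h, where replicate 2 was again the higher.

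The controls outside the time course showed wild type in other libraries, which the onset had not used. At 96 h Hoxa2 was at 13.1, 11.3, 14.4 and 17.5 FPKM, Hoxa3 at 10.2, 13.8, 20.0 and 15.999, and Hoxa5 at 13.7, 13.5, 13.2 and 16.1. At 120 h Hoxa2 was at 14.1, 13.8, 12.9 and 16.9 FPKM, Hoxa3 at 18.6, 18.4, 15.0 and 0, and Hoxa5 at 15.5, 15.3, 14.3 and 12.9. The stages overlapped in all 3 genes. From 96 to 120 h none of the 3 passed (0 also at an unadjusted p under 0.05, limma), while 27.1% of all genes did. The difference was 0.05 for Hoxa2 (95% interval -0.46 to 0.55) and 0.04 for Hoxa5 (-0.42 to 0.50), and for Hoxa3 -1.62 (-3.30 to 0.06) as deposited and 0.24 (-0.39 to 0.87) with its 0 as missing. At 144 h the controls stood at 17.6 and 17.8 FPKM for Hoxa2, 16.5 and 14.04 for Hoxa3, and 13.4 and 14.2 for Hoxa5.

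Against these controls the time-course libraries differed in 1 of 9 tests at 96, 120 and 144 h, against 28% of all gene tests. It was Hoxa5 at 96 h, lower by -0.71 (SE 0.28, adjusted p = 0.0464 in limma). It rests on replicate 2 at 96 h, since without the second replicates of the time course the difference was -0.10 (adjusted p = 0.586 in limma), and without any 1 of the wild-type replicates the adjusted p was 0.0635 to 0.0760.

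The mutants test whether changes at HoxD were accompanied by a change of the anterior Hoxa genes. Over 17 combinations of line and stage, 1 of 51 tests passed, against 12.1% of all gene tests, and 4 had an unadjusted p under 0.05 (2 with the Hoxa3 value of 0 as missing). In limma, mutant minus control ranged from -0.93 to 0.90 for Hoxa2, from -0.39 to 0.23 for Hoxa5, and from -0.71 to 2.36 for Hoxa3 as deposited, or -0.71 to 0.61 with the 0 as missing. Over the 17 combinations, the lowest and highest 95% bounds were -1.64 and 1.52 for Hoxa2 and -0.95 and 0.79 for Hoxa5. For Hoxa3 they were -3.09 and 4.42 as deposited, or -1.54 and 1.43 with the 0 as missing. For Hoxa2, the intervals of Del(CBS1-5) at 144 h (-1.64 to -0.21) and Ins(2xCBS-d4d8) at 120 h (0.28 to 1.52) left out 0. These bounds are not adjusted over all genes. Where an interval held 0, changes within it could not be told from none.

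**Figure D3:**
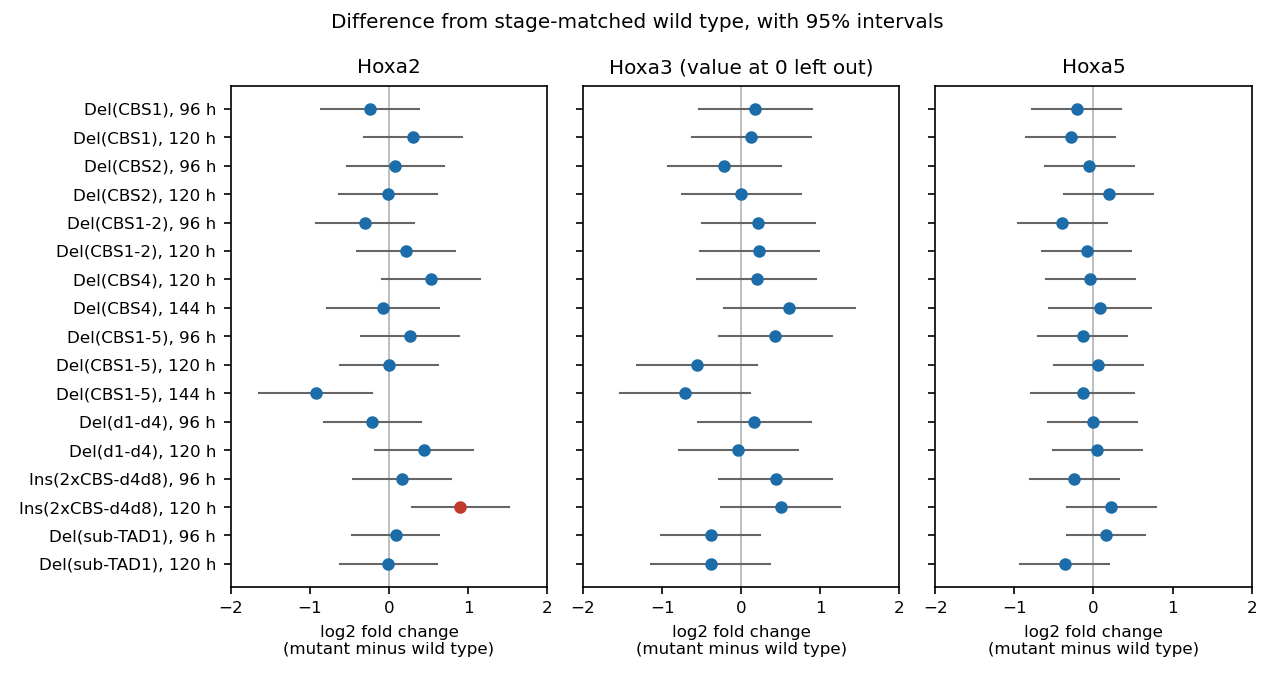
Differences of Hoxa2, Hoxa3 and Hoxa5 between each mutant and the stage-matched wild type (x axis, log2 of FPKM + 0.1, mutant minus wild type) for 17 combinations of line and stage (y axis), points with 95% intervals of the limma fit, and red for the test past the threshold. Hoxa2 in Ins(2xCBS-d4d8) at 120 h was past it, and the Hoxa3 panel leaves out the wild-type value of 0.

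The test that passed was that of Hoxa2 in Ins(2xCBS-d4d8) at 120 h. Both mutant libraries, at 27.5 and 26.3 FPKM, lay above the 4 controls at 14.1, 13.8, 12.9 and 16.9 FPKM, a separation that was not counted over all genes. The difference was 0.90 (SE 0.30, adjusted p = 0.0249 in limma), or 1.87-fold, and 26.9% of all genes passed in this comparison, 10.2% as higher. The mutant belongs to the library set with low mt-Nd3, as does the highest control (16.9 FPKM). Against controls of that set alone, which include the time course at 17.2 and 17.6 FPKM, the groups did not overlap, which was likewise not counted over all genes. The difference there was 0.64 with adjusted p = 0.242 in limma, and with the set as a further term it was 0.62 (adjusted p = 0.257). Without wild-type replicate 3 the adjusted p was 0.0658, and without either mutant replicate 0.425 or 0.405.

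In the same comparison, Hoxa3 stood at 21.9 and 27.1 FPKM and Hoxa5 at 16.5 and 17.5 FPKM, neither past the threshold. Of the 8 paralogues 3 rose, Hoxd3 by 0.78 (SE 0.20), Hoxb3 by 0.67 (SE 0.23) and Hoxd4 by 0.54 (SE 0.20), and none fell. Of the other Hoxa genes and HoxA transcripts none of 9 tested passed. Of the cell type markers Pou5f1 fell by 1.89, Tbx6 by 0.85 and Tnnt2, 1 of 2 cardiac markers tested, by 1.28. The other cardiac marker tested did not pass. The part of these in the Hoxa2 value was not tested.

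Within 96 h the order of the Hoxa2 means ran from Del(CBS1-5), 16.7 ± 0.133 FPKM (SD, n = 2), over Ins(2xCBS-d4d8), 15.6 ± 0.228, Del(sub-TAD1), 14.8 ± 1.05 (n = 3), Del(CBS2), 14.7 ± 0.769, and wild type, 14.1 ± 2.60 (n = 4), to Del(d1-d4), 12.0 ± 0.633, Del(CBS1), 11.8 ± 0.279, and Del(CBS1-2), 11.3 ± 0.853. With the time course at 16.7 ± 7.28 in first place, the libraries of 7 of 8 pairs of neighbours overlapped, Del(CBS1-5) and Ins(2xCBS-d4d8) being the exception. At 120 h Ins(2xCBS-d4d8), 26.9 ± 0.864, was followed by Del(CBS4), 20.8 ± 0.734, Del(d1-d4), 19.6 ± 1.68, Del(CBS1), 17.7 ± 0.487, the time course, 17.4 ± 0.282, Del(CBS1-2), 16.7 ± 0.349, wild type, 14.4 ± 1.73 (n = 4), Del(CBS1-5), 14.4 ± 0.389, Del(sub-TAD1), 14.3 ± 1.01, and Del(CBS2), 14.2 ± 0.523. There 6 of 9 pairs of neighbours overlapped, and the widest gap was the one below Ins(2xCBS-d4d8). Overlaps of neighbours, for Hoxa2 and for the genes that follow, were not counted over all genes.

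For Hoxa3 at 96 h, Ins(2xCBS-d4d8), 19.7 ± 1.05 FPKM (SD, n = 2), and Del(CBS1-5), 19.6 ± 0.4996, stood highest, then Del(CBS1-2), 16.9 ± 0.157, Del(d1-d4), 16.9 ± 6.15, Del(CBS1), 16.5 ± 0.776, wild type, 15.0 ± 4.12 (n = 4), the time course, 12.8 ± 8.55, Del(CBS2), 12.6 ± 0.727, and Del(sub-TAD1), 11.2 ± 1.38 (n = 3). Of these neighbours 7 of 8 pairs overlapped. At 120 h Ins(2xCBS-d4d8), 24.5 ± 3.65, was again highest, ahead of the time course, 20.9 ± 10.6, Del(CBS1-2), 20.2 ± 0.704, Del(CBS4), 19.7 ± 1.07, Del(CBS1), 18.8 ± 0.919, wild type without its 0, 17.3 ± 2.02 (n = 3), Del(CBS2), 17.3 ± 0.462, Del(d1-d4), 16.8 ± 0.239, Del(sub-TAD1), 13.2 ± 1.43, and Del(CBS1-5), 11.7 ± 0.965. Here 7 of 9 pairs overlapped, and a gap set off Del(sub-TAD1) and Del(CBS1-5).

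For Hoxa5 at 96 h, Del(sub-TAD1), 15.7 ± 0.973 FPKM (SD, n = 3), stood above wild type, 14.1 ± 1.34 (n = 4), Del(d1-d4), 14.02 ± 0.707, Del(CBS2), 13.6 ± 0.620, Del(CBS1-5), 12.8 ± 1.35, Del(CBS1), 12.2 ± 0.595, Ins(2xCBS-d4d8), 11.9 ± 0.244, Del(CBS1-2), 10.7 ± 0.343, and the time course, 9.35 ± 5.34. Again 7 of 8 pairs of neighbours overlapped. At 120 h the means ran from Ins(2xCBS-d4d8), 17.0 ± 0.683, and Del(CBS2), 16.5 ± 0.201, over Del(CBS1-5), 15.1 ± 0.592, Del(d1-d4), 15.0 ± 0.292, wild type, 14.5 ± 1.19 (n = 4), Del(CBS4), 14.1 ± 0.00177, Del(CBS1-2), 13.7 ± 0.012, and the time course, 13.5 ± 5.46, to Del(CBS1), 11.9 ± 0.911, and Del(sub-TAD1), 11.2 ± 1.14. Of these 7 of 9 pairs overlapped, and the whole order spanned less than the replicates of the time course did at this stage.

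**Figure D4:**
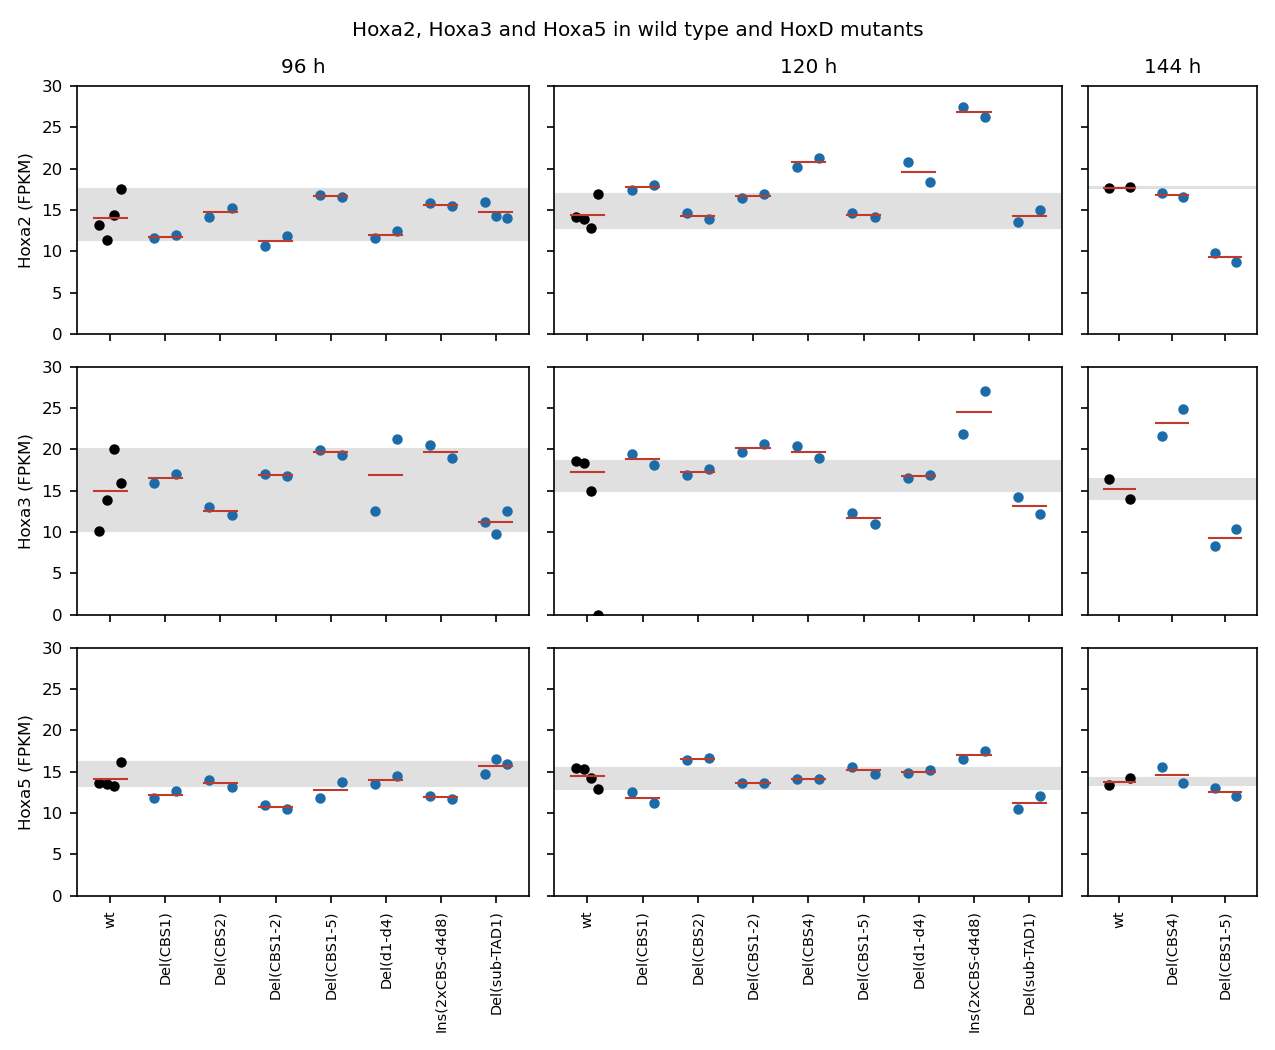
FPKM of Hoxa2, Hoxa3 and Hoxa5 (y axes) in wild type outside the time course (black) and mutants (blue) at 96, 120 and 144 h (columns), with 1 point per library, red lines for group means and a grey band for the range of the controls, both without the Hoxa3 value of 0. Hoxa2 at 120 h was highest in Ins(2xCBS-d4d8), at 27.5 and 26.3 FPKM, and at 144 h lowest in Del(CBS1-5).

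At 144 h Del(CBS1-5) held the lowest Hoxa2 and Hoxa3 of the stage, and the Hoxa2 test there, singled out after its values were seen, lay just outside the threshold. Hoxa2 stood at 9.84 and 8.74 FPKM against 17.6 and 17.8 FPKM in the controls, a difference of -0.93 (SE 0.35, adjusted p = 0.052 in limma) where 23.7% of all genes passed. It passed under 9 alternatives, among them controls of the same library set (-0.95, adjusted p = 0.0122 in limma), all wild-type libraries of the stage as controls (adjusted p = 0.0164) and the library set as a term (adjusted p = 0.0402). With either of these choices of controls it was the 1 mutant test that passed, and Hoxa2 in Ins(2xCBS-d4d8) at 120 h did not. Hoxa2 in Del(CBS1-5) did not pass when scaled by Hoxb and Hoxc genes, as described below. These genes stood at 0.523 and 0.607 of the controls in its 2 libraries. Hoxa3 stood at 8.26 and 10.3 FPKM against 16.5 and 14.04 FPKM, and Hoxa5 at 13.0 and 12.0 FPKM against 13.4 and 14.2 FPKM. In all 3 the mutant libraries lay below the controls, a separation that was not counted over all genes. For Hoxa5 the limma estimate was only -0.14 (95% interval -0.78 to 0.51), and neither Hoxa3 nor Hoxa5 passed. As lower, 8.18% of all genes passed in this comparison. Of the 8 paralogues 7 fell, from 0.58 for Hoxb5 to 1.64 for Hoxc4, and Hoxc5 did not pass. The same libraries held 200 and 207 FPKM of Pou5f1 against 1.25 and 3.30 FPKM in the controls, all 3 pluripotency markers rose (Pou5f1 by 6.57, Nanog by 6.46, Zfp42 by 5.11), and 4 of 6 neural markers fell. The part of these in the members' values was not tested. Del(CBS4) at 144 h had Hoxa2 at 16.8 ± 0.324 FPKM, Hoxa3 at 23.3 ± 2.37 and Hoxa5 at 14.6 ± 1.37 (SD, n = 2), none past the threshold.

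Whether a mutant's effect differed between its stages was tested for 9 pairs of stages. None of 27 tests passed, and none had an unadjusted p under 0.05 (limma), while 4.43% of all gene tests passed. The differences between stages ranged from -0.93 to 0.74 for Hoxa2 and from -0.52 to 0.47 for Hoxa5, with 95% intervals from -1.87 to 1.61 and from -1.27 to 1.26. For Ins(2xCBS-d4d8), Hoxa2 stood at 15.6 ± 0.228 FPKM at 96 h, and the rise at 120 h was thus not shown to differ from the effect at 96 h.

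The study scaled some Hoxa genes, Hoxa5 among them, by Hoxb and Hoxc genes without a formula in its text. In the form chosen here, only the members' values in each library were divided by the median change of its Hoxb and Hoxc genes. All other genes stayed as deposited. This gave other calls. Hoxa2 in Ins(2xCBS-d4d8) at 120 h was then at 0.59 (adjusted p = 0.466 in limma). In Del(sub-TAD1) at 96 h, which the study left unscaled and whose Hoxb and Hoxc genes stood at 0.390 to 0.538 of the controls, Hoxa2 passed at 1.23 (adjusted p = 0.0372 in limma) and Hoxa5 at 1.31 (adjusted p = 0.000599). In Ins(2xCBS-d4d8) at 96 h, with a factor of 1.68 to 1.70, Hoxa5 passed at -1.02 (adjusted p = 0.0162 in limma). These are changes relative to the Hoxb and Hoxc genes: as deposited, Del(sub-TAD1) at 96 h had Hoxa2 at 14.8 ± 1.05 FPKM against 14.1 ± 2.60 in the controls (n = 3 and 4), and 5 of the 8 paralogues fell, where 40% of all genes passed, 18.1% as lower.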

How the data were processed

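Poly-A RNA of pooled stembryos was sequenced as stranded paired ends. Per the submitters' processing notes and the study's methods, reads were trimmed (cutadapt 1.16), aligned on mm10 (STAR 2.7.7a), kept where they mapped to a single place, and turned into FPKM with Cufflinks 2.2.1 at default parameters. The deposited values are FPKM as the authors' Cufflinks run wrote them, already scaled to depth and transcript length. No counts were used, and the depth was estimated from the deposited confidence bounds. Whether Cufflinks used strand is not given in the sources used here.

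A linear model was fitted to log2(FPKM + 0.1) of the 61 libraries together (limma 3.58.1, R 4.3.3), with 1 coefficient for each of 28 conditions taken from the titles, over the 17098 genes with a mean of at least 1 FPKM in at least 1 condition. Two-sided p-values were corrected (Benjamini-Hochberg) across every tested gene, with a threshold of 0.05. Fold changes are on this scale, which understates the change of low genes. The fit was tested on simulated data. Test values of a member are given for tests past the threshold and for those said to be chosen after their values were seen, and other tests as counts, ranges and intervals. The members and gene lists were chosen with earlier results of these data known. The result of 1 listed regulator is not reported here. Library sets were split at 100 FPKM of mt-Nd3. Sequences and promoter windows came from RefSeq (GRCm38.p6), with 3 of the 4 members matched, and exons from GENCODE vM21. Alternatives changed the pseudocount (1 or 0.01 FPKM), filter, moderation, scaling, controls, library set, replicates and libraries fitted. Treating the Hoxa3 value of 0 as missing was chosen after seeing the data. Python 3.11.15, pandas 2.3.3 and matplotlib 3.10.9 were used.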

Additional observations from a re-analysis of the deposited data

Results flagged for a closer look

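Hoxa5 in replicate 4 of the wild type at 96 h outside the time course, at 16.1 FPKM, was far from the other 3 libraries at 13.7, 13.5 and 13.2 FPKM. Its gap to the nearest library took up 0.844 of the range of the group, above Dixon's 95% critical value for 4 samples, and chance puts about 1 in 20 such groups past it. This replicate belongs to the library set with low mt-Nd3 and the other 3 to the set with high mt-Nd3. The same library also held the highest Hoxa2 of its group, at 17.5 FPKM.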

How the results depend on the processing

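Of the single tests that passed, the rises of Hoxa2 and Hoxa5 from 72 to 84 h were kept under 25 of 26 alternatives, that of Hoxa3 under 19, the Hoxa2 rise from 84 to 96 h under 10 and the Hoxa5 fall under 18 of 26. Hoxa2 in Ins(2xCBS-d4d8) at 120 h was kept under 11 of 19, with estimates from 0.59 to 1.00. Hoxa5 in the time course against the other wild type at 96 h was kept under 5 of 15 and reversed to 0.50 (adjusted p = 0.249 in limma) when scaled by Hoxb and Hoxc genes. The 5 of 21 steps of the time course became 2 with a pseudocount of 0.01 FPKM, 3 without the filter, 0 with only the compared conditions in the fit, and 2 to 7 when a replicate was left out. The low end came from leaving out either library at 84 h, and leaving out replicate 2 at 96 h gave 3. The 1 of 51 mutant tests became 2 with a pseudocount of 1 FPKM, with a variance trend and robust moderation, with upper-quartile scaling or with only the compared conditions, 3 with scaling by Hoxb and Hoxc genes, 4 with the library set as a term, and 0 to 3 when a replicate was left out. Of 21 calls that alternatives added, 9 were Hoxa2 in Del(CBS1-5) at 144 h (adjusted p between 0.00716 and 0.0492) and 9 Hoxa3, of which those at 120 h arose against its value of 0. Hoxa3 in Ins(2xCBS-d4d8) at 96 h was called only with the library set as a term. It was at 3.16 there against 0.43 in the main fit, and this term was also fitted to that 0. With controls of the same library set or all wild-type libraries of the stage, the count of 1 was that Hoxa2 test in place of Ins(2xCBS-d4d8), and without wild-type replicate 3 it was Hoxa3 in Ins(2xCBS-d4d8) at 120 h. The tests of a difference between stages went from 0 to 1 with scaling by Hoxb and Hoxc genes and to 1 with the library set as a term, and wild type from 96 to 120 h from 0 to 1 with that term, by Hoxa3. The time course against other wild type went from 1 to 0 with a pseudocount of 0.01 FPKM, without the filter or with upper-quartile scaling, and to 0 to 3 when a replicate was left out. The onset of Hoxa2 moved to 96 h at 50% of its highest mean, and the onsets of Hoxa2 and Hoxa3 lay between 72 and 84 h when a replicate was left out.

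With replicate numbers as a replicate block, 5 steps of the time course and 2 mutant tests passed, Hoxa2 in Del(CBS1-5) at 144 h being the added one. Differences between replicates correlated from -0.0893 to 0.132 between stages of the time course (1 of 28 pairs above 0.1). Between other conditions they correlated from -0.214 to 0.153 (1 of 190). The labels do not say whether libraries with the same number shared more than that number. No other count of calls moved by over 1.5 times under the block. The cause of these changes was not tested. Scaling by Hoxb and Hoxc genes was not run for the steps of the time course, where Hox genes are switched on. At 72 h 5 to 96 fragments stood behind each value of Hoxa2, Hoxa3 and Hoxa5, so that depth limits these values most.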
